A study of Rattus norvegicus with 6 samples.

Results

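Genes that mark the endothelium, the cell layer lining blood vessels, and the endocardium, the endothelial lining of the heart, were examined in heart primordia of Wister rat embryos on embryonic day 10. The members were 10 genes fixed by name: the ligand Vegfa, the receptors Kdr, Flt1, Tek and Tie1, the junction and surface proteins Cdh5, Pecam1 and Emcn, and the transcription factors Tal1 and Nfatc1. Every probe carrying the name of a member was taken, which gave 13 probes for 9 of the 10 genes, out of 19297 genes named on the array. No probe carried the name Nfatc1, so this gene was not analysed here. The pre-heartbeat group held heart primordia with a flat centre, and the post-heartbeat group held heart primordia with a raised centre. The paper took these as before and after the start of contraction. It defined them by shape and somite number, from earlier work relating morphology to the timing of contraction. The labels name no allele and no agent in either group. Total RNA of 3 samples in each group was labeled with a single dye and measured on Agilent rat arrays, with 1 sample on each of the 6 arrays, and the design calls the samples of a group biological replicates. Whether an array held the RNA of a single primordium or of several was not given in the sources used here.

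Blood vessels and the endocardium form from mesodermal precursors that carry Kdr, and the heart tube has an endocardial lining inside its muscle layer from an early stage. Vegfa was counted with the members as a ligand and not as a marker of endothelial cells. It is secreted by surrounding tissue and is a known target of the hypoxia-inducible factors. It acts on endothelial cells through the tyrosine kinase receptor Kdr, while Flt1 binds the same ligand with high affinity and limits its action.

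Signals are given on a log2 scale, less the 75th percentile of their array, so that a step of 1 is a doubling, and differences are post-heartbeat minus pre-heartbeat. A level of one probe was not compared with that of another, because probes differ in how brightly they bind. That percentile ranged from 1143 to 1694 intensity units, and between 39375 and 41327 of 58717 spots were well above background. The arrays were on 2 slides, where slide 1 held the first pre-heartbeat replicate with post-heartbeat replicates 1 and 2, and slide 2 the other arrays. The arrays separated by slide along the first principal component (60.2% of the variance) and by group along the second (16.6%), so the differences of the members' brightest probes are also reported from a fit blocked by slide and within each slide. The median difference of all 19299 tested probes was -0.03, or -0.02 when blocked by slide.

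The 9 measured genes were well above background on all 6 arrays with each of the 13 probes. After heartbeat initiation 2 of them had a higher and 7 a lower mean signal, and the median difference was -0.09. In the fit blocked by slide, 5 were higher and 4 lower, with a median of 0.06. At a limma adjusted p under 0.05, 0 of the 9 genes passed, where 0.145% of all tested probes did, and when blocked by slide 0 passed, where 1.51% of the probes did. At an unadjusted limma p under 0.05, 1 gene (Kdr) passed, beside 7.00% of all probes. The groups did not overlap for 1 gene, again Kdr, beside 11.6% of all probes. As whole primordia were measured, fewer cells that express a gene and less of its RNA in each of these cells cannot be told apart.

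The array carries 60-base probes, and some of those of the members are given below as its annotation holds them. They are probes whose bases hold an open reading frame and read as coding sequence of the receptors Flt1, Tek and Tie1, the junction protein Cdh5, the surface protein Emcn and the regulator Tal1, with their rn4 position. In the probe of Tek, the capitals mark the codons of the aspartate, phenylalanine and glycine triplet found in the activation segment of protein kinases.
Flt1, chr12:7957094-7957153, plus strand: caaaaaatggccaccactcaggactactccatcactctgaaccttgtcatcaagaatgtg
Tek, chr5:115178576-115178635, plus strand: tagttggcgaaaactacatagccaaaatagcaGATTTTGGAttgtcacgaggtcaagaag
Tie1, chr5:138950263-138950322, minus strand: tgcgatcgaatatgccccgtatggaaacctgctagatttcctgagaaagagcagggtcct
Cdh5, chr19:779665-779724, minus strand: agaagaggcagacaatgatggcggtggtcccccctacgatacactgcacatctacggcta
Emcn, chr2:234958254-234958549, plus strand: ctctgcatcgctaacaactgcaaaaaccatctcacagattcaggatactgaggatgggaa
Tal1, chr5:135441545-135441604, plus strand: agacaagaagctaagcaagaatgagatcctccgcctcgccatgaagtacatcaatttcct
The position of the Emcn probe spans 296 bases for a probe of 60, so the probe joins sequence that is apart in the genome. The probe of Pecam1 lay at chr10:96056219-96056278 on the minus strand, and the probe of Kdr had no position in the annotation. The GC content of the 13 probes was between 35% and 55%.

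Vegfa, the ligand, was measured by 4 probes spread over 8331 bases of chromosome 9. With the brightest of them, at chr9:10535933-10535992, the signal was 1.33, 0.85 and 1.22 in pre-heartbeat replicates 1 to 3 and 1.30, 1.26 and 1.23 in post-heartbeat replicates 1 to 3. The post-heartbeat arrays lay close together, inside the range of the pre-heartbeat arrays, of which replicate 2 was lowest. The difference was 0.13 (SE 0.17, 95% interval -0.26 to 0.52, limma adjusted p = 0.864), and 0.07 when blocked by slide, with -0.05 within slide 1 and 0.20 within slide 2. The other three probes gave -0.05, -0.04 and 0.19, each with overlapping groups and with limma adjusted p between 0.864 and 0.942.

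Kdr, the main signalling receptor for Vegfa and an early marker of endothelial precursors, had signals of 3.88, 3.71 and 3.72 in the pre-heartbeat group and 3.12, 3.21 and 3.34 in the post-heartbeat group. All post-heartbeat arrays were below all pre-heartbeat arrays, and the gap between the groups was wider than the spread within either. The pre-heartbeat mean was 3.77 ± 0.098 (SD, n = 3) and the post-heartbeat mean 3.22 ± 0.11 (SD, n = 3), so that the signal was 1.46 times as high before. The difference of -0.55 (SE 0.14, 95% interval -0.87 to -0.22) had an unadjusted limma p of 0.0055 and an adjusted p of 0.283. The two-sided exact permutation test gave p = 0.1, the smallest that 3 arrays against 3 allow. The difference was -0.55 when blocked by slide (limma adjusted p = 0.146), -0.72 within slide 1 and -0.37 within slide 2.

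Flt1, the receptor that binds Vegfa and limits its action, had signals of -2.46, -1.79 and -1.96 before and -2.24, -2.35 and -1.89 after heartbeat initiation. The groups overlapped over nearly their whole range, and in both of them the arrays of slide 2 were the highest. The difference was -0.09 (SE 0.22, 95% interval -0.62 to 0.43, limma adjusted p = 0.910), and when blocked by slide it was 0.07 (95% interval -0.24 to 0.39), with 0.17 within slide 1 and -0.02 within slide 2. The Kdr signal less the Flt1 signal within an array, a measure that does not depend on the scaling of the arrays, was 6.35, 5.50 and 5.67 before and 5.36, 5.56 and 5.23 after. The groups overlapped, with a mean change of -0.45 in this log2 ratio (two-sided exact permutation p = 0.2), which was -0.89 within slide 1 and -0.35 within slide 2.

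**Figure D1:**
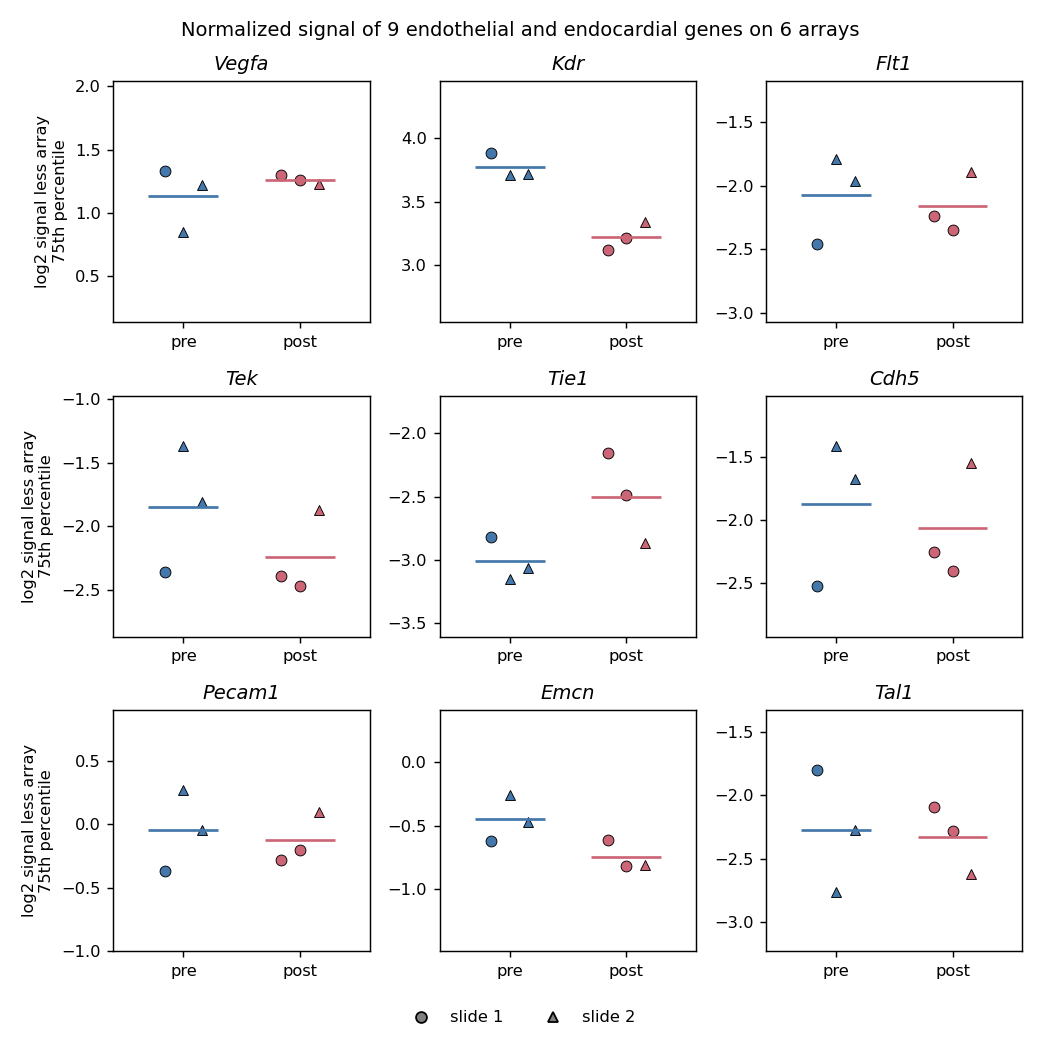
Normalized signal (log2 less the 75th percentile of the array) of the brightest probe of 9 genes on each array of the pre-heartbeat (n = 3) and post-heartbeat (n = 3) groups. Points are arrays, circles are slide 1 and triangles slide 2, lines are group means, and every panel spans the same log2 range. The groups are apart for Kdr, while for Flt1, Tek, Cdh5 and Pecam1 the triangles lie above the circles in both groups.

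Tek and Tie1 form the receptor pair of the angiopoietin system, in which Tek binds the angiopoietins and Tie1, with no ligand of its own established, modulates Tek. Tek had signals of -2.36, -1.37 and -1.81 before and -2.39, -2.47 and -1.87 after heartbeat initiation. Post-heartbeat replicate 3 lay among the pre-heartbeat arrays, and pre-heartbeat replicate 1 lay among the post-heartbeat arrays. The difference was -0.40 (SE 0.29, 95% interval -1.07 to 0.28, limma adjusted p = 0.864), and -0.17 when blocked by slide (limma adjusted p = 0.951), with -0.07 within slide 1 and -0.28 within slide 2.

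Tie1 had signals of -2.82, -3.15 and -3.06 before and -2.16, -2.49 and -2.87 after heartbeat initiation. Post-heartbeat replicates 1 and 2 were above all pre-heartbeat arrays, and replicate 3 was below pre-heartbeat replicate 1. The difference was 0.50 (SE 0.21, 95% interval -0.00011 to 1.0, limma adjusted p = 0.714, two-sided exact permutation p = 0.2). Blocked by slide, it was 0.36 (95% interval 0.0058 to 0.72, limma adjusted p = 0.504), with 0.49 within slide 1 and 0.23 within slide 2.

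Within an array, the Tek signal less the Tie1 signal was 0.45, 1.77 and 1.25 before and -0.24, 0.02 and 1.0 after heartbeat initiation. The groups overlapped, since post-heartbeat replicate 3 was above pre-heartbeat replicate 1. The mean change in this log2 ratio was -0.90 (two-sided exact permutation p = 0.2), and it was -0.56 within slide 1 and -0.51 within slide 2. Kdr less Tie1, a pair chosen after its values were seen, was 6.70, 6.86 and 6.77 before and 5.28, 5.70 and 6.21 after. Here all post-heartbeat arrays were lower, with a mean change of -1.05. As the pair was picked with these values known, the separation is a description and no p is given.

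Cdh5, the cadherin of endothelial junctions, had signals of -2.52, -1.42 and -1.68 before and -2.25, -2.40 and -1.55 after heartbeat initiation. Both the lowest and the highest of the 6 arrays belonged to the pre-heartbeat group, so the post-heartbeat arrays lay wholly inside its range. The difference was -0.20 (SE 0.34, 95% interval -1.01 to 0.62, limma adjusted p = 0.881). Blocked by slide, it was 0.10, with a narrower 95% interval from -0.24 to 0.43. Within slide 1 it was 0.19 and within slide 2 -0.0022.

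Pecam1, an adhesion molecule at contacts between endothelial cells, had signals of -0.37, 0.27 and -0.04 before and -0.28, -0.20 and 0.10 after heartbeat initiation. The post-heartbeat arrays again lay inside the pre-heartbeat range, with slide 2 the higher in both groups. The difference was -0.08 (SE 0.21, limma adjusted p = 0.915), and 0.06 when blocked by slide (95% interval -0.28 to 0.39), with 0.13 within slide 1 and -0.02 within slide 2.

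Emcn, endomucin, a sialomucin on the surface of endothelial and endocardial cells, had signals of -0.62, -0.26 and -0.47 before and -0.61, -0.82 and -0.81 after heartbeat initiation. Post-heartbeat replicates 2 and 3 were below every pre-heartbeat array, while replicate 1 was level with pre-heartbeat replicate 1, so the groups just overlapped. The difference was -0.30 (SE 0.15, 95% interval -0.66 to 0.07, limma adjusted p = 0.851). It was -0.27 when blocked by slide, -0.10 within slide 1 and -0.45 within slide 2.

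Tal1, a basic helix-loop-helix transcription factor of blood and endothelial precursors, was measured by 2 probes. The brighter, on 10 spots of each array at chr5:135444269-135444328, had signals of -1.80, -2.76 and -2.27 before and -2.09, -2.28 and -2.62 after heartbeat initiation. The post-heartbeat arrays lay inside the pre-heartbeat range, and the difference was -0.05 (SE 0.27, limma adjusted p = 0.958), or -0.25 when blocked by slide (95% interval -0.65 to 0.16), -0.39 within slide 1 and -0.11 within slide 2. The coding probe printed above gave 0.09 (SE 0.19, limma adjusted p = 0.897) and -0.03 with the block. The probes thus differed in sign without the block, by less than the standard error of either.

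**Figure D2:**
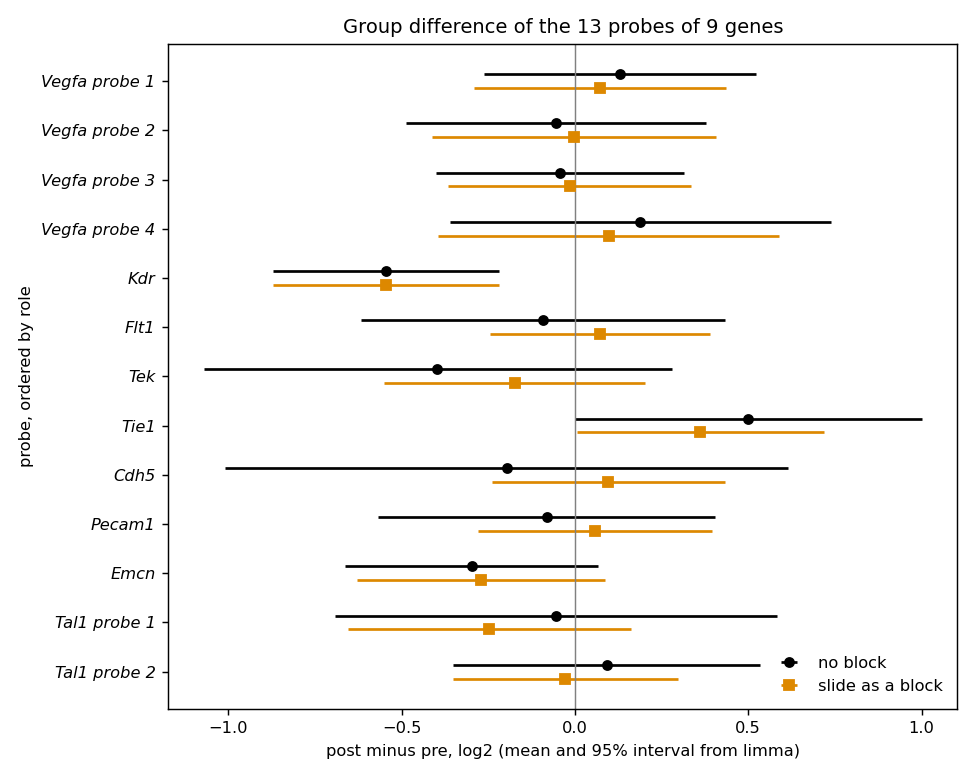
Difference between the groups (post-heartbeat minus pre-heartbeat, log2) for each of the 13 probes, ordered by role, with the brightest probe of a gene first. Points are estimates and bars 95% intervals from limma, without a block (circles) and when blocked by slide (squares). The intervals of Kdr lie below 0 in both fits, that of Tie1 touches 0 without the block, and the bars of Cdh5, Tek and Flt1 shorten with it.

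The slides were compared in the same way, with the group in the fit, to describe how the members varied among themselves. Cdh5 was higher on slide 2 by 0.87 (SE 0.15, limma adjusted p = 0.00853), Tek by 0.67 (SE 0.16, adjusted p = 0.0313) and Flt1 by 0.50 (SE 0.14, adjusted p = 0.0454). These 3 of the 9 genes passed the threshold, where 16.1% of all tested probes did. Pecam1, at 0.41, Tie1, at -0.41, and Tal1, at -0.58, did not pass, with limma adjusted p of 0.0923, 0.106 and 0.062. For 7 of the 9 genes the slide difference had the same sign in both groups. For Kdr and Emcn it did not, and their estimates over both groups were 0.0031 and 0.08. The source of the differences between the slides was not tested.

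**Figure D3:**
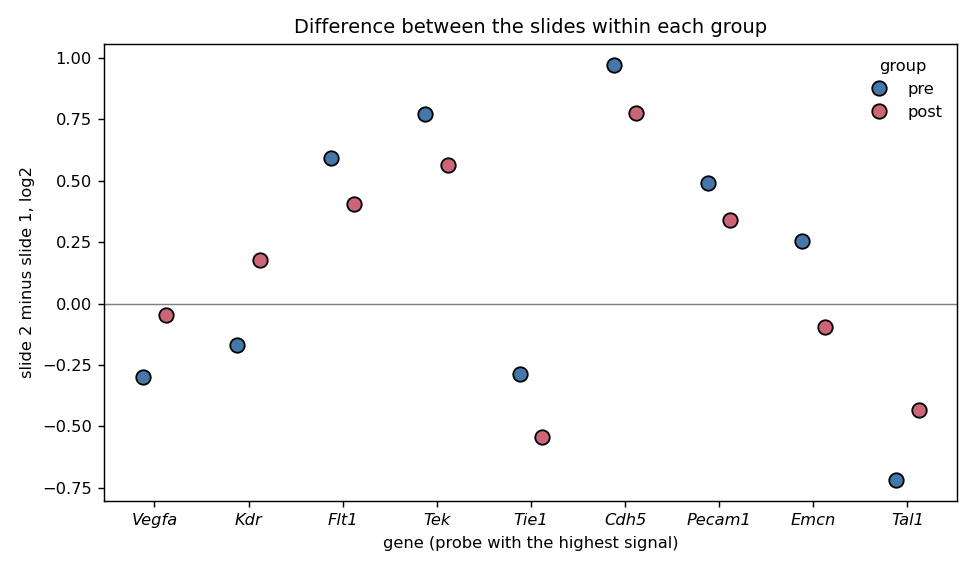
Difference between the slides (slide 2 minus slide 1, log2) of the brightest probe of each gene, within the pre-heartbeat group (1 array on slide 1 and 2 on slide 2) and within the post-heartbeat group (2 and 1). Flt1, Tek, Cdh5 and Pecam1 lie above 0 and Tie1, Tal1 and Vegfa below 0 in both groups, with Cdh5 the highest at 0.97 and 0.78.

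Flt1, Tek, Cdh5 and Pecam1 varied together, with Pearson r between 0.93 and 0.996 for each pair over the 6 arrays. Their pairs had the highest r of all pairs of members, and the other members did not follow them as closely. With these genes, r was between 0.12 and 0.44 for Kdr and between 0.47 and 0.71 for Emcn. It was negative for Tie1 (-0.81 to -0.62), Tal1 (-0.96 to -0.79) and Vegfa (-0.85 to -0.71). These correlations are a description of arrays that share their slides, and no p is given. The mean signal of Kdr, Flt1, Pecam1, Cdh5, Tek and Tie1 was -1.11, -0.62 and -0.80 before and -1.03, -1.12 and -0.79 after heartbeat initiation. It separated the slides and not the groups. Among 12676 other genes, those most like this mean were Sec23ip (r = 0.998), Rbpj (0.997), Prrg4 (0.997), Mdm4 (0.995) and Pcnp (0.994). In all, 395 genes were above 0.95, and none of the 5 named was among the other endothelial genes examined.

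Beyond the members, a list of 62 further endothelial and endocardial genes was examined by role. Of these, 58 had a probe and 54 were tested. Vegfd, Angpt4, Sox17 and Edn1 were too dim on too many arrays, and Ptprb, Ecscr, Mmrn2 and Ephb4 had no probe of that name. The mean signal was higher after heartbeat initiation for 25 genes and lower for 29, with a median difference of -0.06, or -0.04 when blocked by slide. In limma without a block 0 genes passed an adjusted p of 0.05, beside 0.145% of all probes. At an unadjusted limma p under 0.05 there were 4 higher and 6 lower of the 54, beside 7.00% of all probes. The groups did not overlap for 3 genes that were higher and 5 that were lower, beside 11.6% of all probes. In the blocked fit 2 of the 54 passed, beside 1.51% of all probes, and these were Pgf and Cldn5, both lower after heartbeat initiation.

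Pgf, placental growth factor, a ligand of Flt1 that does not bind Kdr, had signals of 1.69, 1.32 and 1.38 before and 0.85, 0.59 and 0.50 after heartbeat initiation. All post-heartbeat arrays were below all pre-heartbeat arrays. The difference was -0.82 (SE 0.17, limma adjusted p = 0.175) without a block and -0.91 (adjusted p = 0.026) when blocked by slide, with -0.97 within slide 1 and -0.86 within slide 2. A second Pgf probe gave -0.73, also with groups that did not overlap. Among the 6 tested VEGF ligands, receptors and co-receptors of the list, 4 were lower and 2 higher.

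Cldn5, a claudin of endothelial tight junctions, had signals of -1.89, -2.73 and -2.68 before and -2.50, -3.02 and -3.70 after heartbeat initiation. The groups overlapped when pooled, and within each slide all post-heartbeat arrays were below the pre-heartbeat arrays. The difference was -0.64 (limma adjusted p = 0.864) without a block and -0.93 (adjusted p = 0.0448) with it. In the blocked fit with 1 array left out in turn, the difference of Pgf stayed between -0.97 and -0.85 and that of Cldn5 between -1.05 and -0.83, while the adjusted p of Pgf ranged from 0.0296 to 0.334 and that of Cldn5 from 0.0414 to 0.44. Pgf passed without pre-heartbeat replicate 2 or 3 or post-heartbeat replicate 2, and Cldn5 passed without post-heartbeat replicate 1, while neither passed without pre-heartbeat replicate 1 or post-heartbeat replicate 3. Over all probes, the blocked fit made 292 calls with every array, 5 without pre-heartbeat replicate 1 and 1 without post-heartbeat replicate 3.

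The 3 most negative differences of the list were those of Foxc1, Pgf and Angpt2. Foxc1, a forkhead transcription factor of mesoderm and vessels, had signals of 0.15, -2.12 and -0.96 before and -1.22, -2.04 and -3.00 after heartbeat initiation. The spread within both groups was wide, and the difference was -1.11 (SE 0.64, limma adjusted p = 0.864), or -1.62 when blocked by slide (adjusted p = 0.0728), -1.78 within slide 1 and -1.46 within slide 2. Angpt2, a ligand of Tek, had signals of -2.80, -2.16 and -2.41 before and -3.19, -3.07 and -3.41 after. Its groups did not overlap, with a difference of -0.77 (SE 0.20, limma adjusted p = 0.303), or -0.73 when blocked by slide (adjusted p = 0.17), -0.33 within slide 1 and -1.13 within slide 2. Angpt1, the main activating ligand of Tek, had a difference of 0.26 (SE 0.47, limma adjusted p = 0.881). Blocked by slide, it was 0.66 (SE 0.20, 95% interval 0.20 to 1.12, adjusted p = 0.23), with 0.37 within slide 1 and 0.95 within slide 2.

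The 3 most positive differences were those of Lyl1, Eng and Plvap, and none passed the test. Lyl1, a relative of Tal1 in blood and endothelial precursors, had signals of -1.06, -1.76 and -1.29 before and -0.21, -0.35 and -1.07 after heartbeat initiation, so that a single post-heartbeat array lay just inside the pre-heartbeat range. The difference was 0.83 (SE 0.28, limma adjusted p = 0.517), or 0.62 when blocked by slide (adjusted p = 0.188), 0.78 within slide 1 and 0.46 within slide 2. Eng, a co-receptor for ligands of the TGF-beta family, had signals of -3.05, -3.57 and -2.89 before and -2.19, -2.52 and -2.78 after, with no overlap and a difference of 0.68 (limma adjusted p = 0.545), or 0.57 when blocked by slide (adjusted p = 0.391), 0.70 within slide 1 and 0.45 within slide 2. Plvap, a protein of endothelial fenestrae, had a difference of 0.66 with overlapping groups (limma adjusted p = 0.842), or 0.48 when blocked by slide (adjusted p = 0.72), 0.56 within slide 1 and 0.39 within slide 2.

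**Figure D4:**
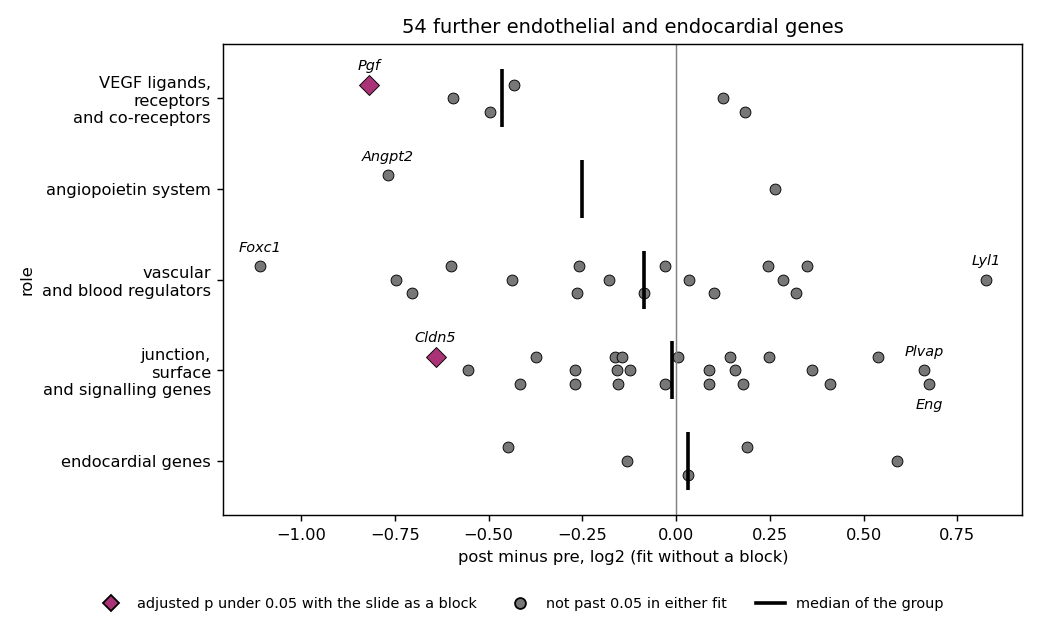
Difference between the groups (post-heartbeat minus pre-heartbeat, log2, fit without a block) of 54 further endothelial and endocardial genes by role. Points are genes, thick lines are medians of a role, and diamonds are the 2 genes that passed in the fit blocked by slide. Genes of every role lie on both sides of 0, with role medians from -0.46 for the VEGF group to 0.03 for the endocardial genes.

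Markers of other cell types were examined in the same samples. The mean signal of 12 cardiomyocyte markers ranged from 3.42 to 3.85 before and from 4.58 to 4.68 after heartbeat initiation, and all 12 were higher after heartbeat initiation. Myl2, the ventricular myosin light chain, passed in limma with a difference of 3.46 (adjusted p = 0.00463), and Myl4, Actn2, Myh6 and Myh7 passed in addition when blocked by slide, with differences from 0.99 to 1.19. Of 7 distinct erythroid probes, 5 were higher and 2 lower with a median of 0.72. When blocked by slide, 4 were higher and 3 lower with a median of 0.74. The haemoglobin gene Hbg1 passed when blocked by slide, with a difference of 0.74 (limma adjusted p = 0.0442). Its probe was dim, with intensities of 36.7, 20.8 and 27.6 before heartbeat initiation. It was well above background on 2 pre-heartbeat and 3 post-heartbeat arrays, so it was tested only through the group where it was higher. Among 5 other blood cell markers with a probe, Itgam, Csf1r and Runx1 were well above background on all 6 arrays with their brightest probes and did not pass, with differences of 0.04, 0.19 and 0.02, and Ptprc and Spi1 were well above background on 0 arrays. Of 8 markers of yolk sac and visceral endoderm, 2 were higher and 6 lower with a median of -0.29, all 8 were lower with a median of -0.54 when blocked by slide, and 0 passed in either fit. Their mean signal varied between arrays, at 1.30, -0.04 and 0.78 before and 0.76, 0.75 and -0.25 after heartbeat initiation. Of 6 neural genes, 2 were tested. Otx2 passed with a difference of -1.56 (limma adjusted p = 0.0201), and Sox2 did not, with -0.21 and overlapping groups (adjusted p = 0.897). Of 3 tested paraxial mesoderm genes 0 passed. The part of these cell types in the differences of Kdr, Tie1, Pgf, Cldn5 and Foxc1 was not tested.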

How the data were processed

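Heart primordia of 3 pre-heartbeat and 3 post-heartbeat samples were measured on 1-color Agilent arrays. The authors deposited, for every spot, the processed signal, an intensity from which Agilent Feature Extraction 10.7.3.1 had subtracted the background. The authors also deposited ratios on a linear scale, shifted to the 75th percentile of each array and divided by a baseline for each probe, and these were used as an alternative. For 100% of the probes, their log2 differences between arrays matched those of the processed signal within 0.01 after a constant for each pair of arrays.

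Control spots and spots flagged as outliers (324 to 545 of 58717 per array) were left out, 0 spots were saturated, log2 signals were reduced by the 75th percentile of their array, and spots of a probe were averaged. A probe was tested where either group had it well above background on its 3 arrays, which held for 19299 of 30367 probes. Groups were compared with limma 3.58.1 in R 4.3.3 (package data.table, version 1.17.8) with Benjamini-Hochberg adjustment over all tested probes and a threshold of 0.05, and single values by exact two-sided permutation of the arrays. The fits were tested on simulated data. Precision is limited by the number of arrays, and nothing beyond the word biological says whether samples came from separate litters.

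The probe with the highest mean signal stood for a gene in counts and medians. All members are named. Further genes are named if they passed in either fit or were among the 3 most positive or 3 most negative differences, together with the 5 genes most like the mean of the pan-endothelial members. Angpt1, Sox2, the untested or absent genes, 5 blood cell markers and the ratio of Kdr to Tie1 were added after their values had been seen. So were Tmem100 with the other tested endocardial genes, Vwf and the ETS genes of the closing section. Members, lists and tests were chosen with earlier results of these data known. Positions are those of the array annotation (rn4). Exons and untranslated regions were not annotated. Sequences are printed for 6 of the 13 probes, those read as coding, and 1 further coding probe sequence is not reported here.

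Fits were repeated blocked by replicate number or by slide, after normexp correction (offset 50), after quantile normalization, with the 75th percentile of the probes detected above background on every array, without the filter or with it applied to all 6 arrays, on the authors' ratios, with the methods' Tukey test with adjustment or with the methods' selection (1.5 fold and an unadjusted p under 0.05), with an intensity trend, with the mean of a gene's probes, and without each array in turn. The fit blocked by slide without each array was added once the values were known.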

Additional observations from a re-analysis of the deposited data

How the results depend on the processing

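In all 18 repeated fits, 0 of the 9 genes passed in either direction. Their median difference of -0.09 was between -0.29 and -0.0138 with each array left out in turn and 0.0567 when blocked by slide. The median signal of the 9 genes on an array had a standard deviation of 0.308 between replicates of a group, pooled over the groups. Of 162 values of single genes, 151 kept their direction and side of the threshold and 11 changed sign. When blocked by slide, Flt1 changed to 0.0735, Cdh5 to 0.0959 and Pecam1 to 0.0567. With the mean of both probes, Tal1 changed to 0.0182. With an array left out, Tal1 ranged from -0.295 to 0.185, Vegfa from -0.0138 to 0.230, Flt1 from -0.290 to 0.0489, Cdh5 from -0.520 to 0.0314 and Pecam1 from -0.244 to 0.0771. Kdr kept its sign, between -0.60 and -0.49, with limma adjusted p between 0.146 and 0.969, and Tie1 between 0.33 and 0.68, with adjusted p between 0.293 and 1. Blocked by slide with an array left out, Kdr was between -0.72 and -0.37.

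Of the further endothelial genes, 0 passed in limma without a block. Blocked by slide, 2 passed as lower, and without an array in that fit between 0 and 2 passed as lower and between 0 and 1 as higher. In the methods' selection 1 gene was higher and 4 were lower of 54, where 589 of 19299 probes were selected. The causes of these shifts were not tested.

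The deviations of same-numbered arrays from their group means correlated at 0.65, -0.28 and 0.49. Between a pre-heartbeat and a post-heartbeat array of the same slide they correlated at 0.49 to 0.65. The arrays numbered 1 share a slide, as do those numbered 3. These values therefore cannot tell whether the replicate number pairs the samples. With the replicate block, 0 of the 9 genes and 0 further genes passed, the number of calls among all probes was 166 in place of 28, and Kdr had a difference of -0.55 with an adjusted p of 0.332. With 3 arrays per group, a difference the size of that of Kdr did not pass the adjustment over all probes.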

Other observations

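The further list held 5 transcription factors of the ETS family, which bind the regulatory regions of many endothelial genes. They were grouped after their values had been seen, so their shared direction is a description. The vascular and blood regulators they were taken from held 17 tested genes, of which 7 were higher and 10 lower. The mean difference was -0.75 for Ets1, -0.70 for Fli1, -0.60 for Erg, -0.44 for Elk3 and -0.26 for Etv2, the last an early regulator of endothelial precursors. All 5 ETS genes were also lower with the slide as a block, from -0.58 for Fli1 to -0.22 for Elk3, and on each slide taken alone. In either fit 0 of the 5 passed the limma threshold, where 0.145% of all tested probes did without the block and 1.51% with it. Fli1 had signals of -2.74, -2.08 and -2.41 before and -3.18, -3.20 and -2.96 after heartbeat initiation, with no overlap between the groups (limma adjusted p = 0.349). The groups did not overlap for 11.6% of all tested probes.

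Tmem100 and Vwf were also chosen after their values had been seen. Tmem100, a gene expressed in endocardium and arterial endothelium, had signals of -2.18, -1.78 and -2.01 before and -1.51, -1.36 and -1.33 after heartbeat initiation. All post-heartbeat arrays were higher, with a difference of 0.59 (SE 0.16, limma adjusted p = 0.308), or 0.65 with the slide as a block (adjusted p = 0.0862). Of the 5 tested endocardial genes, 3 were higher and 2 lower, with a median of 0.03. The brightest probes of Nrg1, Cgnl1, Hapln1 and Npr3 gave -0.45, -0.13, 0.03 and 0.19, each with overlapping groups. The 3 tested probes of Vwf, von Willebrand factor, differed in direction, with 0.41 and 0.61 where the groups did not overlap and -0.11 where they did, and none passed the limma threshold (adjusted p 0.611, 0.326 and 0.939).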
